A study of Mus musculus with 9 samples.

Results

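The genes examined were the mouse genes that encode collagen chains: the protein-coding genes of the mm10 genome whose symbol has the form Col, number, a, number. The gene table held 44 such symbols, of which 2 collagen IV chain genes are not analysed here, and the other 42, of 21896 protein-coding genes in all, were the members. Collagens are trimeric proteins in which each chain winds around its partners in a triple helix, and the chains are sorted into classes by the structures they build: banded fibrils, open networks such as those of basement membranes, beaded filaments, fibril-associated molecules, and collagens that span the cell membrane. Fibroblasts and mural cells make most of the fibrillar collagen of the lung, while endothelial cells rest on a basement membrane that they help to build. ATAC-seq maps open chromatin: a transposase inserts sequencing adapters preferentially where DNA is free of nucleosomes, and such sites mark active promoters and distal regulatory elements.

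The data were 9 ATAC-seq peak lists of mouse lung endothelial cells isolated by FACS. Infant, young adult and mature adult mice gave 3 libraries each. No genotype, strain, sex, treatment or age in days is given in the labels, nor the antibodies of the sort, and replicates of 1 age are not stated to be separate animals. P-values therefore measure only the spread between these libraries, which may be technical. The title of the study concerns the passage of endothelial cells from an angiogenic to a quiescent state, and the ages were compared with each other.

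A peak is an interval of open chromatin called by the authors, and each distinct interval was counted for the gene in whose body its centre lay, or else for the gene whose end was nearest, up to 100 kb away. The infant libraries held 88856 to 94646 peaks, the young adult libraries 67550 to 68366 and the mature adult libraries 59793 to 64208. Since the infant lists were longer, each gene's peak number was tested both scaled to the library's total and unscaled (limma, Benjamini-Hochberg adjustment over the 14448 genes that averaged 1 peak or more). Below, a gene "fell" or "rose" only where the adjusted p was under 0.05 in the same direction on both scales, and adjusted p-values are those of the scaled numbers unless stated. Read depth is unknown, so the absence of a peak does not show closed chromatin. Young adult library 3 and mature adult library 1 stood apart, with 31.5% and 31.8% of rows repeated against 35.7% to 39.5% elsewhere, and with peaks that averaged 487 and 495 bp in width against 530 to 564 bp. The 8 endothelial marker genes, among them Pecam1, Cdh5 and Kdr, carried 180 to 191 peaks together in infant, 158 to 175 in young adult and 145 to 171 in mature adult libraries, and none of the 8 was at 0 throughout.

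Promoters showed which collagen genes lost a peak at the start itself. RefSeq sequences (GRCm38.p6, the build called mm10) from 250 bp before to 50 bp after a transcription start were supplied for 33 of the 42 members, as 36 windows. Of these, 8 windows had a peak in all 3 infant libraries and in no mature adult library, against 3.99% of the 21262 windows of all genes: those of Col11a1, Col1a2, Col24a1, Col4a4, Col4a5, Col5a3 and Col6a1 and the second start of Col6a2. For 4 of them, Col11a1, Col1a2, Col24a1 and Col6a1, no young adult library had a peak either (2.15% of all windows). A peak in all 9 libraries covered 5 member windows, those of Col5a1, Col23a1, Col25a1, Col27a1 and the upstream start of Col18a1, against 49.0% of all windows. No library had a peak at 13 member windows (39.9% of all windows). Printed below are the 4 windows with peaks in infants only, that of Col4a4 with peaks in infants and young adults only, and, for comparison, those of Col5a1 and Col18a1 with peaks in all 9 libraries. Each is given 5′ to 3′ on the strand of its gene. Capitals mark every match, read on either strand, to the motifs named after the sequences.
Col1a2 (chr6:4505368-4505667, plus strand): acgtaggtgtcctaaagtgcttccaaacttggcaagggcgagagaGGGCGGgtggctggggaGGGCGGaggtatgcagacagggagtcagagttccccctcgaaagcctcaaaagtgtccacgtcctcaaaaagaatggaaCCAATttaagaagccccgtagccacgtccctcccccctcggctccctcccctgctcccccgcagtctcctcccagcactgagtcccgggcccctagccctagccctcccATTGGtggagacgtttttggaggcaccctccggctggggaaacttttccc
Col11a1 (chr3:114030290-114030589, plus strand): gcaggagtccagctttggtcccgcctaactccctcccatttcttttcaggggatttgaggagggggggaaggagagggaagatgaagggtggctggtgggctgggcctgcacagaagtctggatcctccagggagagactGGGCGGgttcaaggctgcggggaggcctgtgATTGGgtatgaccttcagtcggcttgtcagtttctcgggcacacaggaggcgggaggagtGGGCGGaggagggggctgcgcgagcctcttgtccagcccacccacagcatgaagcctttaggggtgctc
Col24a1 (chr3:145292222-145292521, plus strand): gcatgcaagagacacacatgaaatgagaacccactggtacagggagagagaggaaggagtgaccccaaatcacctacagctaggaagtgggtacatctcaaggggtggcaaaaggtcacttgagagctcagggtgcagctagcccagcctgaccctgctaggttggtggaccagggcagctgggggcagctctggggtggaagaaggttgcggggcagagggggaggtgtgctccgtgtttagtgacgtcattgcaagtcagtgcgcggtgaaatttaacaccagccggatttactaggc
Col6a1 (chr10:76725995-76726294, minus strand): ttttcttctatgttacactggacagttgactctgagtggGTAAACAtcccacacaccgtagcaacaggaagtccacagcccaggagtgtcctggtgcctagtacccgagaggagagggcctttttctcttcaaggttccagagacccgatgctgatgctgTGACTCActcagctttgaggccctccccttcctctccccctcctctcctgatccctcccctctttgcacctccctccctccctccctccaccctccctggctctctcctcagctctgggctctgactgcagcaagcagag
Col4a4 (chr1:82586800-82587099, minus strand): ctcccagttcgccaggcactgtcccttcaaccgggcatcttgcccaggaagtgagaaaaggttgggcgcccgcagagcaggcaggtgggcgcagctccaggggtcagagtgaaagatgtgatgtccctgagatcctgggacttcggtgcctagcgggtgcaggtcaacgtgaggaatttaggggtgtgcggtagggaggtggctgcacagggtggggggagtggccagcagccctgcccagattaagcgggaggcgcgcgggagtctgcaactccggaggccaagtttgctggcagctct
Col5a1 (chr2:27886175-27886474, plus strand): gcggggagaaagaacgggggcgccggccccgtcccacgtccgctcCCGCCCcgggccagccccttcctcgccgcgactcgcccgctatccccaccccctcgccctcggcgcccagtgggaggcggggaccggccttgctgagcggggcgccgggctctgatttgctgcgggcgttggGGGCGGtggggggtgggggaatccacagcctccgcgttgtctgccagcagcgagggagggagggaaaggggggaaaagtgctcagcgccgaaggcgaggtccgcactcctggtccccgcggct
Col18a1 (chr10:77166481-77166780, minus strand): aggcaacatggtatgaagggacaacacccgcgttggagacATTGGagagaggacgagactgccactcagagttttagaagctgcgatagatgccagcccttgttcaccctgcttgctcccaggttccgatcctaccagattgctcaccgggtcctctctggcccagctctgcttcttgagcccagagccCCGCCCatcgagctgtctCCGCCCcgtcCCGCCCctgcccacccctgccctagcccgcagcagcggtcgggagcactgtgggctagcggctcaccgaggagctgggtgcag
The windows of Col1a2, Col11a1 and Col18a1 held both CCAAT and GGGCGG, that of Col5a1 held GGGCGG alone, that of Col6a1 held TGANTCA and TGTTTAC, and those of Col24a1 and Col4a4 held none of the motifs searched. Among all 36 member windows GGGCGG, the core bound by SP factors, was found in 21 (58.3%, against 46.2% of all windows) and CCAAT, bound by NF-Y, in 11 (30.6%, against 38.2%). TATAAA was found in 5 (13.9% against 12.6%), ACAAAG, a SOX and TCF core, in 5 (13.9% against 16.8%), TGANTCA, the AP-1 motif, in 1 (2.78% against 6.99%) and TGTTTAC, a forkhead motif, in 1 (2.78% against 3.01%). CCGGAA, a form of the ETS site, was found in none of the 36 and in 18.7% of all windows. Other forms of the ETS site were not searched. All were searched on both strands, and none of the motifs contains another. The median GC content was 63.3% for the 5 windows with a peak in all 9 libraries, 60.0% for the 18 with a peak in 1 to 8 libraries and 55.7% for the 13 without one, and the median number of CpG dinucleotides was 23, 11.5 and 5.

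**Figure D1:**
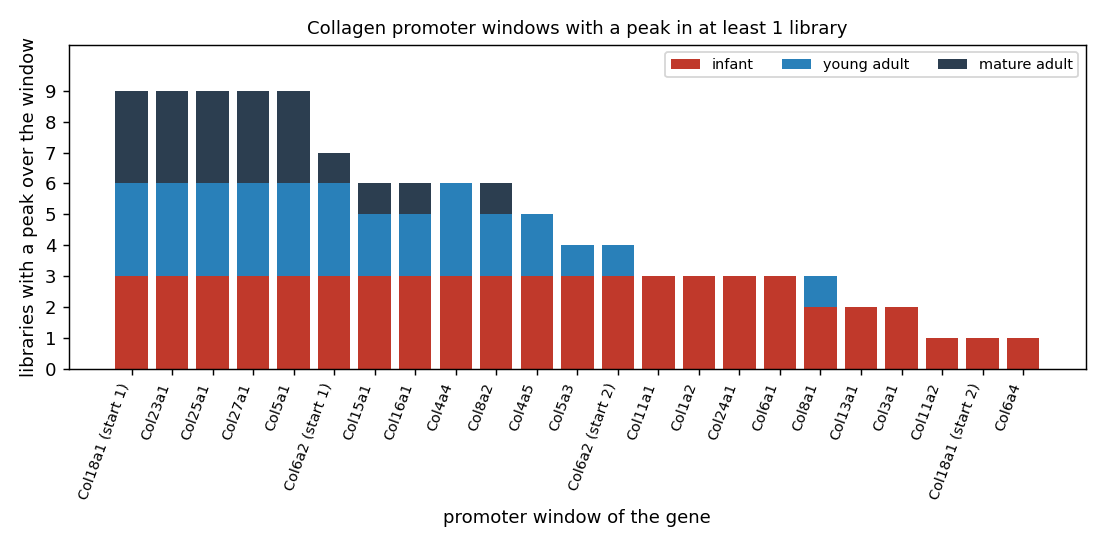
Number of libraries with a peak over each collagen promoter window (vertical axis, 0 to 9), stacked by age, for the windows with a peak in at least 1 library. The windows of Col5a1, Col18a1 (start 1), Col23a1, Col25a1 and Col27a1 reach 9, and those of Col11a1, Col1a2, Col24a1 and Col6a1 hold 3 infant libraries and no adult one.

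Collagen genes as a group carried fewer peaks in adults than a loss in proportion to list length gives. Whether a shorter list loses peaks in proportion at every gene was not tested. The 42 members held 332, 306 and 300 peaks in infants, 154, 151 and 140 in young adults, and 111, 120 and 112 in mature adults. The ages did not overlap. The young adult mean was 0.474 and the mature adult mean 0.366 of the infant mean, where all peaks of a library gave 0.745 and 0.684. As a share of the peaks assigned to any gene, collagen genes took 0.374% ± 0.00733 in infants, 0.236% ± 0.00678 in young adults and 0.199% ± 0.00724 in mature adults (SD, n = 3 each). In bulk chromatin of sorted cells, fewer cells of a type with open collagen genes and less open chromatin per cell cannot be told apart. The 11 genes of the fibroblast and mural marker list carried 67 to 74 peaks in infant, 31 to 34 in young adult and 29 to 31 in mature adult libraries. Of its 9 tested genes, 4 fell between infants and young adults (Pdgfrb, Cspg4, Des and Tbx5) and 5 between infants and mature adults (these and Twist1), where 9.26% and 13.8% of all tested genes did. Myh11 rose in mature adults (1.44% of all tested genes), and Pdgfra, Tcf21 and Acta2 fell in neither comparison. Pdgfrb, Des, Tbx5 and Twist1 passed the filter of a mean of at least 1 peak only through their infant libraries. Their infant mean thus had to exceed their adult mean. In the other lists the mesothelial Wt1 and the cartilage Matn1 fell in both comparisons and the lymphatic Prox1 fell in young adults. Lum had no peak in any library, and Pdgfrb had 5, 4 and 5 peaks in infants, 1, 0 and 1 in young adults and 1, 1 and 0 in mature adults. The 3 mesothelial markers carried 13 to 15, 6 to 9 and 4 to 5 peaks, with Msln at 0 throughout, and the 5 epithelial markers 15 to 20, 7 to 12 and 9 to 10, with Sftpc at 0 throughout. The 4 lymphatic markers carried 22 to 24, 18 and 17 to 19 peaks (Pdpn at 0 throughout), the 6 leukocyte markers 10 to 11, 8 to 13 and 8 to 9 (Cd68 and Itgam at 0 throughout), and the 4 cartilage markers 5 to 11, 4 to 6 and 4. The part of other cell types in the collagen result was not tested.

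**Figure D2:**
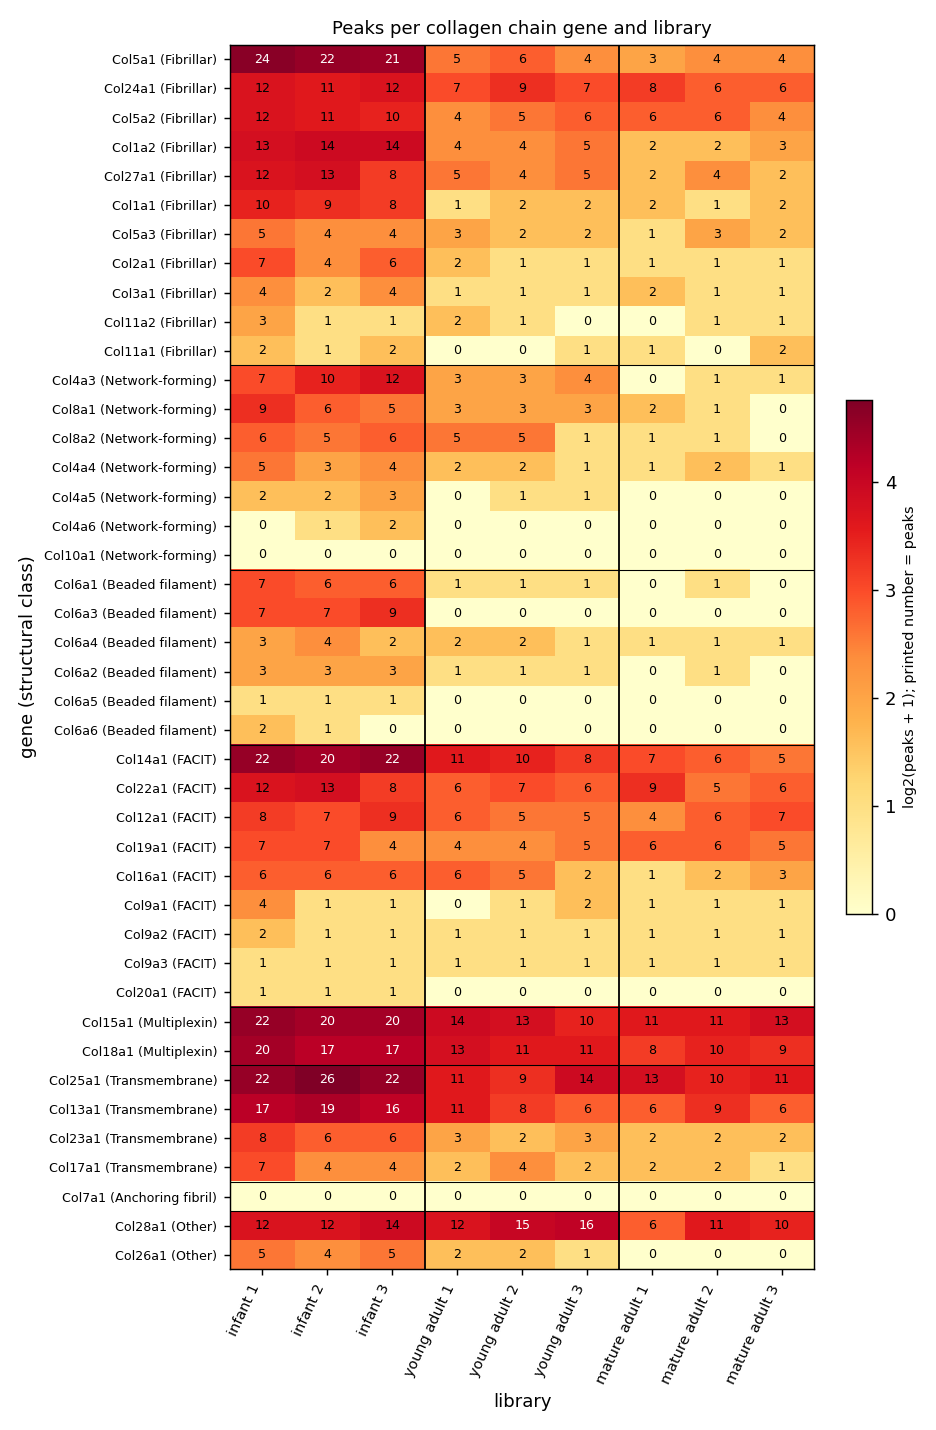
Peaks per collagen chain gene (rows, grouped by structural class) in each of the 9 libraries (columns), with the number printed in each cell and the colour on the scale log2(peaks + 1). The infant columns are the darkest for most genes, and Col6a3 reads 7, 7 and 9 in infants and 0 in all 6 adult libraries.

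Of the 42 members, 36 passed the filter of a mean of at least 1 peak and were tested. Col10a1 and Col7a1 had no peak in any library, and Col20a1, Col6a5, Col6a6 and Col4a6 had 0 to 2 peaks in infants and none in adults. Between infants and young adults 12 of the 36 fell, where 9.26% of all tested genes did, and none rose, where 1.13% of all tested genes did. Between infants and mature adults 19 fell, where 13.8% of all tested genes did, and none rose, where 1.44% of all tested genes did. Of the members that fell, Col4a5, Col6a1, Col6a2, Col6a3 and Col26a1 passed the filter only through their infant libraries. So did Col11a1 and Col11a2, which did not fall. For such genes the infant mean had to exceed the mean of the adult libraries. The shares over all tested genes also include genes of this kind, in a number not given here. On scaled numbers alone the lower calls were also 12 (background 9.34%) and 19 (background 13.8%), and on unscaled numbers alone they were 17 (background 17.5%) and 26 (background 29.4%), with no higher call (background 1.13% and 1.44%). Col9a3, with 1 peak in every library, was called higher on scaled numbers in both comparisons (background 25.6% and 30.0%), which is the scaling of an unchanging number. Between young adults and mature adults 1 member fell, Col26a1, where 0.644% of all tested genes did, and none rose (0.0969% of all tested genes). Col26a1 was also the only lower call on scaled numbers alone (background 0.699%) and on unscaled numbers alone (background 0.824%), and no member was called higher (background 0.145% and 0.104%).

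The median change of the tested members on the log2(scaled number + 0.5) scale was -0.63 for young adult against infant and -0.82 for mature adult against infant, while that of all tested genes was 0.13 and 0.14. Unscaled, the member medians were -1.04 and -1.29 and those of all tested genes -0.25 and -0.31. These are descriptions of genes chosen with earlier results known. Both adult ages were compared with the same infant libraries. Every young adult library was below every infant library for 25 of the 36 tested members (27.5% of all tested genes), and every mature adult library was for 27 (35.6%). The opposite order was found for no tested member (1.81% and 1.79% of all tested genes). Between the adult ages, every mature adult library was below every young adult library for 7 (4.39%) and above for none (0.609%). On unscaled numbers the infant mean was the highest of the 3 ages for 38 of the 42 members. These means ran from infant through young adult to mature adult in falling order for 23. The mature adult mean exceeded the infant mean for none, and the young adult mean exceeded it for 1, Col28a1. The infant lists were longer, and the unscaled medians of all tested genes were negative too. The same orders were not counted over all genes, so these counts do not set collagen genes apart. Without the libraries that stood apart, 13 and 23 members were called lower on scaled numbers. With the 59793 widest peaks of each library, unscaled, 5 and 12 members were called lower, of which 4 were among the 12 and 12 among the 19. The calls this ended were Col1a1, Col1a2, Col3a1, Col5a2, Col6a1, Col14a1, Col23a1 and Col25a1 for young adults (limma adjusted p between 0.0966 and 0.835) and Col1a1, Col1a2, Col6a2, Col8a1, Col13a1 and Col27a1 for mature adults (0.0712 to 0.305), while Col4a5 was below the filter. With peaks in the gene body alone, 6 of the 12 and 11 of the 19 were still called lower on scaled numbers. Col1a1, Col3a1 and Col5a2 for young adults and Col1a1, Col6a4 and Col8a1 for mature adults did not pass there, and Col1a2, Col6a1 and Col6a3 in both, with Col4a5 and Col6a2 for mature adults, were below the filter. Collagen peaks were narrower than the average peak, with means of 457 ± 16.1, 405 ± 17.4 and 410 ± 25.4 bp in infants, young adults and mature adults (SD, n = 3) against 549, 522 and 518 bp for all peaks.

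**Figure D3:**
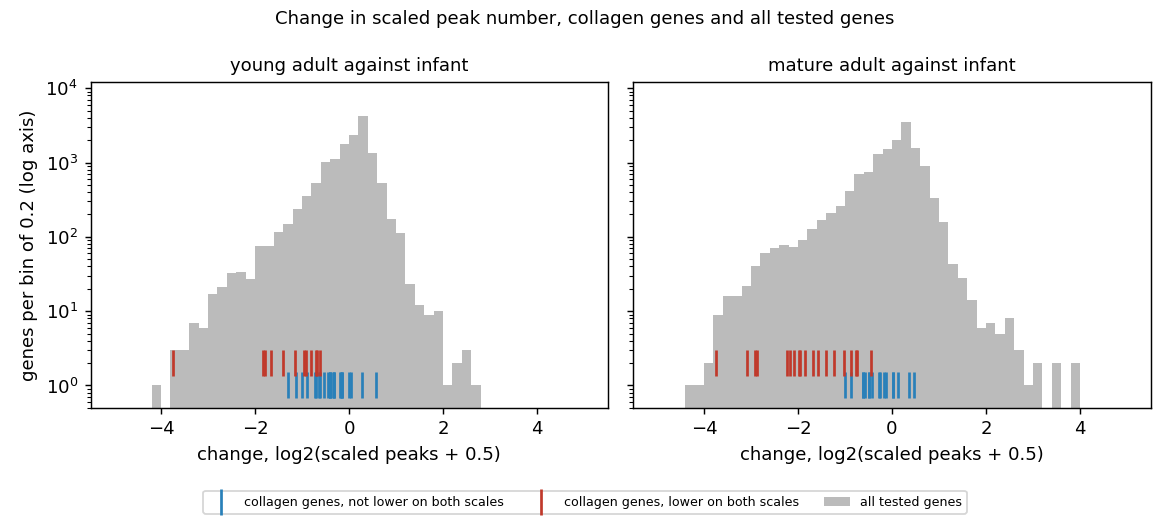
Change in peak number on the log2(scaled peaks + 0.5) scale (horizontal axis) for all 14448 tested genes (grey, genes per bin of 0.2 on a log axis) and for the 36 tested collagen genes (ticks, red where lower on both scales). The medians of the collagen genes, -0.63 and -0.82, lie left of those of all tested genes, 0.13 and 0.14.

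The 11 fibrillar chain genes carried 104, 92 and 90 peaks in infants, 34, 35 and 34 in young adults and 28, 29 and 28 in mature adults. The mature adult mean was thus 0.297 of the infant mean. Between infants and young adults 6 of the 11 fell (Col1a1, Col1a2, Col2a1, Col3a1, Col5a1 and Col5a2), and between infants and mature adults 5 fell (Col1a1, Col1a2, Col2a1, Col5a1 and Col27a1). Col5a1, a chain of the type V collagen that starts fibril assembly (chr2:27886381-28039510), had 24, 22 and 21 peaks in infants, 5, 6 and 4 in young adults and 3, 4 and 4 in mature adults. The change was -1.66 (SE 0.141, limma adjusted p = 0.000531) in young adults and -1.95 (SE 0.141, limma adjusted p = 0.000135) in mature adults. Adults and infants did not overlap, and the fall stood in every alternative fit in which the gene was tested. Its partner Col5a2 (chr1:45374331-45503282) had 12, 11 and 10 peaks in infants, 4, 5 and 6 in young adults and 6, 6 and 4 in mature adults. It fell in young adults (limma adjusted p = 0.0286) but not on both scales in mature adults, where the limma adjusted p was 0.0798 scaled and 0.0103 unscaled. The young adult call was lost on leaving out infant library 1, 2 or 3 or young adult library 1 or 2, with limma adjusted p between 0.0536 and 0.0848, with the replicate number as a block it was 0.0654, and with peaks in the body alone it was 0.688. That call was also lost when peaks outside genes counted only up to 10 kb away. Col5a3, the third chain of the type, had 5, 4 and 4, then 3, 2 and 2, then 1, 3 and 2 peaks and passed in neither comparison (limma adjusted p = 0.323 and 0.157).

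Type I collagen, the main fibrillar collagen of connective tissue, is built from the products of Col1a1 and Col1a2. Col1a2 (chr6:4505618-4541543) had 13, 14 and 14 peaks in infants, 4, 4 and 5 in young adults and 2, 2 and 3 in mature adults (limma adjusted p = 0.000768 and 0.000135). Col1a1 (chr11:94936224-94953042) had 10, 9 and 8, then 1, 2 and 2, then 2, 1 and 2 (limma adjusted p = 0.00186 and 0.00211). Both genes lost peaks mainly outside their bodies. With peaks in the body alone, Col1a1 had 3, 2 and 3 in infants, 1, 2 and 2 in young adults and 2, 1 and 2 in mature adults, and it no longer passed (limma adjusted p = 0.599 and 0.746). Col1a2 had 1, 2 and 2 in its body in infants and none in any adult library.

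Col3a1, the type III chain found with type I in vessel walls (chr1:45311538-45349706), had 4, 2 and 4 peaks in infants, 1 in each young adult library and 2, 1 and 1 in mature adults. It fell in young adults (limma adjusted p = 0.037), a call lost on leaving out infant library 1 or 3 or any young adult library (0.0769 to 0.114) or with peaks in the body alone (0.349). The call was also lost with repeated rows counted and when peaks outside genes counted only up to 10 kb away. Col2a1, the type II chain of cartilage (chr15:97975602-98004724), had 7, 4 and 6 peaks in infants, 2, 1 and 1 in young adults and 1 in each mature adult library (limma adjusted p = 0.00297 and 0.00144). Adult and infant libraries of Col2a1 did not overlap. Col27a1 (chr4:63214009-63334991) had 12, 13 and 8, then 5, 4 and 5, then 2, 4 and 2 peaks and fell in mature adults (limma adjusted p = 0.00382). Col24a1 had 12, 11 and 12, then 7, 9 and 7, then 8, 6 and 6 and passed on unscaled numbers only (limma adjusted p = 0.0321 and 0.00777 unscaled, 0.409 and 0.214 scaled). Col11a1 and Col11a2, cartilage fibril chains, had 0 to 3 peaks per library and did not pass.

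**Figure D4:**
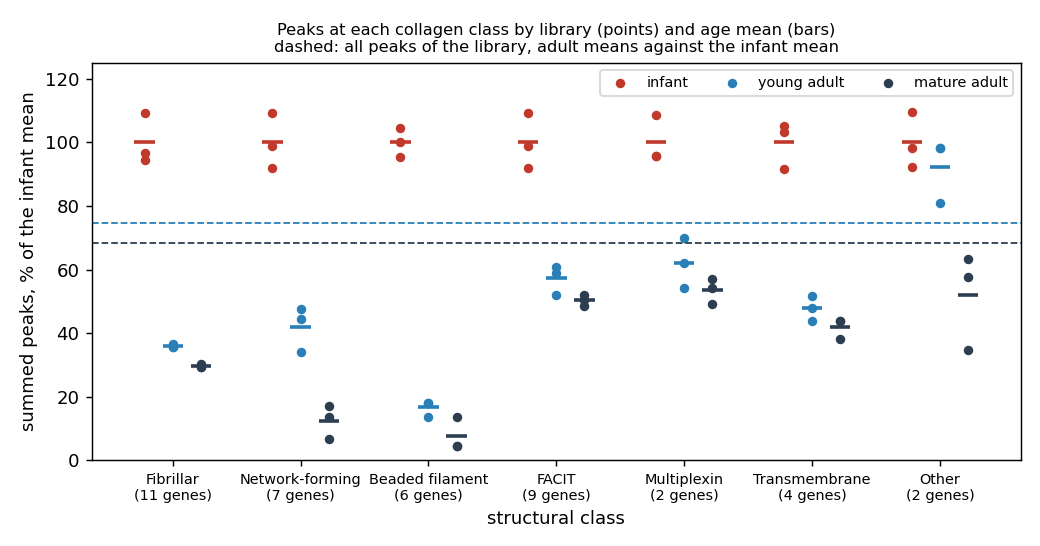
Summed peaks of each collagen class by library (points) as a percent of the class's infant mean, with age means (bars) and, dashed, the adult means of all peaks of a library against the infant mean. Beaded-filament and network-forming genes reach the lowest mature adult means, and the class labelled Other is the only one whose young adult mean lies above the dashed line for young adults.

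The 7 network-forming genes carried 29, 27 and 32 peaks in infants, 13, 14 and 10 in young adults and 4, 5 and 2 in mature adults, a mature adult mean 0.125 of the infant mean. None passed in young adults, and all 5 tested members fell in mature adults. Col4a3, Col4a4 and Col4a5 encode the chains of the specialised basement membrane network of kidney glomeruli and lung alveoli. Col4a3 (chr1:82586921-82722059) had 7, 10 and 12 peaks in infants, 3, 3 and 4 in young adults and 0, 1 and 1 in mature adults (limma adjusted p = 0.152 in young and 0.00197 in mature adults). Col4a5 (chrX:141475370-141689236) had 2, 2 and 3, then 0, 1 and 1, then none (limma adjusted p = 0.0817 and 0.00436). It was below the filter, and so not tested, without infant library 1, 2 or 3 and with peaks in the body alone. In the main fit Col4a5 passed the filter only through its infant libraries. The 3 ages were ordered without overlap for Col4a3. Col4a4 (chr1:82448419-82587034) had 5, 3 and 4, then 2, 2 and 1, then 1, 2 and 1 peaks (limma adjusted p = 0.0978 and 0.044). Its mature adult call was lost on leaving out infant library 1 or 3, young adult library 1 or 2 or mature adult library 1 or 3 (0.053 to 0.131), with the replicate number as a block (0.0591) and without the libraries that stood apart (0.071). The bodies of Col4a3 and Col4a4 overlap at their starts, and in 4 libraries 1 peak had its centre in both bodies and went to the gene with the nearer end. Col4a6 had 0, 1 and 2 peaks in infants and none later.

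Type VIII collagen forms hexagonal networks in vessel walls and beneath the corneal endothelium. Col8a1 (chr16:57624256-57754737) had 9, 6 and 5 peaks in infants, 3 in each young adult library and 2, 1 and 0 in mature adults (limma adjusted p = 0.459 and 0.0232). Col8a2 (chr4:126286794-126314330) had 6, 5 and 6, then 5, 5 and 1, then 1, 1 and 0 (limma adjusted p = 0.667 and 0.0295). Both thus had mature adult libraries below all infant libraries. The call of Col8a1 was lost without infant library 1 or 2 (0.0556 and 0.0767) and with peaks in the body alone (0.0927). It was also lost when peaks outside genes counted only up to 10 kb away and in a fit of the infant and mature adult libraries alone. That of Col8a2 was lost without infant library 1, 2 or 3 or mature adult library 3 (0.0651 to 0.0782).

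The 6 beaded-filament genes, the chains of type VI collagen, carried 23, 22 and 21 peaks in infants, 4, 4 and 3 in young adults and 1, 3 and 1 in mature adults. The mature adult mean was 0.0758 of the infant mean, the lowest ratio of the 7 classes with peaks. Of the 4 tested members, 2 fell in young adults and 4 in mature adults. Col6a3, whose long chain joins the products of Col6a1 and Col6a2 in the classical trimer (chr1:90766860-90844001), had 7, 7 and 9 peaks in infants and none in any adult library (limma adjusted p = 1.34e-06 and 9.61e-07). Most of them lay outside the gene: the body alone held 1, 3 and 1 peaks in infants. The adult libraries, all at 0, had no spread, so the small p-values of Col6a3 go with changes of 7 to 9 peaks. Col6a1 (chr10:76708792-76726044) had 7, 6 and 6, then 1 in each young adult library, then 0, 1 and 0 (limma adjusted p = 0.0131 and 0.00103), and its young adult call was lost when peaks outside the gene counted only up to 10 kb away (0.0588). Col6a2 (chr10:76595756-76623630) had 3 in each infant library, 1 in each young adult library and 0, 1 and 0 in mature adults (limma adjusted p = 0.156 and 0.00767). With peaks in the body alone Col6a1, Col6a2 and Col6a3 were below the filter and not tested, as was Col6a3 with peaks up to 10 kb away. All 3 chains of the trimer were, on all assigned peaks, lower in every adult than in every infant library. These 3 genes passed the filter of a mean of at least 1 peak only through their infant libraries. The later-found chains lie in a cluster on chromosome 9. Col6a4 (chr9:105990318-106096828) had 3, 4 and 2, then 2, 2 and 1, then 1 in each mature adult library (limma adjusted p = 0.348 and 0.0475). Its mature adult call was lost on leaving out infant library 1 or 2, young adult library 1 or 2 or any mature adult library (0.054 to 0.134) and with peaks in the body alone (0.454). Col6a4 also lost this call with repeated rows counted, without the filter, and when peaks outside genes counted only up to 10 kb away. Col6a5 had 1 peak in each infant library and Col6a6 had 2, 1 and 0, and neither had a peak in adults.

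The 9 genes of the fibril-associated collagens with interrupted triple helices (FACIT) carried 63, 57 and 53 peaks in infants, 35, 34 and 30 in young adults and 30, 28 and 29 in mature adults, a mature adult mean 0.503 of the infant mean. Of the 8 tested members only Col14a1 fell in either comparison. Col14a1, which decorates the surface of collagen fibrils (chr15:55307644-55520803), had 22, 20 and 22 peaks in infants, 11, 10 and 8 in young adults and 7, 6 and 5 in mature adults. The 3 ages did not overlap (limma adjusted p = 0.0101 and 0.00043). Its closest relative Col12a1 had 8, 7 and 9, then 6, 5 and 5, then 4, 6 and 7 and did not pass. Col22a1, found at tissue junctions, had 12, 13 and 8, then 6, 7 and 6, then 9, 5 and 6, and Col19a1 and Col16a1 had 4 to 7 and 6 peaks per infant library against 4 to 6 and 1 to 6 per adult library. The cartilage chains Col9a1, Col9a2 and Col9a3 had 0 to 4 peaks per library.

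The multiplexins Col15a1 and Col18a1 encode core proteins of vascular basement membranes, and a fragment of the type XVIII chain is endostatin, an inhibitor of angiogenesis. Together they carried 42, 37 and 37 peaks in infants, 27, 24 and 21 in young adults and 19, 21 and 22 in mature adults, a mature adult mean 0.534 of the infant mean. Col18a1 (chr10:77052178-77166530) had 20, 17 and 17, then 13, 11 and 11, then 8, 10 and 9 (limma adjusted p = 0.14 and 0.00617). Col15a1 (chr4:47207655-47313167) had 22, 20 and 20, then 14, 13 and 10, then 11, 11 and 13. It passed on unscaled numbers (limma adjusted p = 0.0117 and 0.00548) but not on scaled ones (0.081 and 0.115). Counted per length, as peaks inside the body per 10 kb, the mature adult mean level was 0.695 for Col15a1 and 0.35 for Col18a1, with Col1a1 (0.991) above both and Col9a2 (0.635), Col9a3 (0.415), Col12a1 (0.409), Col28a1 (0.407) and Col5a2 (0.388) between them.

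The 4 transmembrane collagens carried 54, 55 and 48 peaks in infants, 27, 23 and 25 in young adults and 23, 23 and 20 in mature adults, a mature adult mean 0.420 of the infant mean. Col23a1 (chr11:51289679-51583925) had 8, 6 and 6, then 3, 2 and 3, then 2 in each mature adult library (limma adjusted p = 0.00518 and 0.0012). Its adult and infant libraries did not overlap. Col25a1 (chr3:130180358-130599884), known from nerve and muscle, had 22, 26 and 22, then 11, 9 and 14, then 13, 10 and 11 (limma adjusted p = 0.0366 and 0.0717). The young adult call was lost on leaving out any infant library, young adult library 1 or 2 or mature adult library 3 (0.0541 to 0.114) and with the replicate number as a block (0.0658). It was also lost in a fit of the infant and young adult libraries alone. Col13a1, a collagen of cell adhesions and the neuromuscular junction (chr10:61838234-61979206), had 17, 19 and 16, then 11, 8 and 6, then 6, 9 and 6 (limma adjusted p = 0.0642 and 0.0313). Its mature adult call was lost on leaving out any infant library or mature adult library 1 or 3 (0.0635 to 0.0938). Col17a1, the hemidesmosome collagen of epithelia, had 1 to 7 peaks per library and did not pass on both scales.

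Of the remaining chains, Col26a1 (chr5:136741759-136883376) fell at each step. It had 5, 4 and 5 peaks in infants, 2, 2 and 1 in young adults and none in mature adults. Col26a1 passed the filter of the main fit only through its infant libraries. The limma adjusted p was 0.00868 for young adult against infant, 9.87e-05 for mature adult against infant and 0.00255 for mature against young adult. When only the 6 young and mature adult libraries were fitted, Col26a1 was below the filter and was not tested, and none of the 29 other members that were tested passed in limma (6 had an unadjusted p under 0.05, and the lowest adjusted p was 0.139). On scaled numbers alone, leaving out single libraries added Col4a5 (without young adult library 1), Col6a1 and Col6a2 (without mature adult library 2) or Col1a2 (without mature adult library 3) to the members called lower between the adult ages, and leaving out the libraries that stood apart added Col14a1. Col28a1 (chr6:7997100-8193709), a chain with von Willebrand factor A domains, had its highest mean in young adults, with 12, 12 and 14 peaks in infants, 12, 15 and 16 in young adults and 6, 11 and 10 in mature adults, and it passed in no comparison (limma adjusted p = 0.0694 for young adult and 0.965 for mature adult against infant).

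Overlapping peaks of the 9 lists were merged into regions, and 409 of the 126907 regions belonged to collagen genes. Infant-only regions, with a peak in each infant list and none in adults, numbered 82 of the 409 (20.0%), against 9.7% of all regions. A peak in all 9 libraries was found at 65 (15.9%), against 32.4% of all regions. Regions with a peak in all infant and young adult libraries and in no mature adult library numbered 7 (1.71%), against 0.602% of all regions. Adult-only regions, with a peak in each of the 6 adult lists and none in infants, numbered 2 (0.489%), against 0.686% of all regions. By class, infant-only regions made up 27.1% of the 129 fibrillar regions, 34.5% of the 29 beaded-filament regions, 17.5% of the 40 network-forming regions, 17.1% of the 70 transmembrane regions, 14.3% of the 42 multiplexin regions, 13.5% of the 74 FACIT regions and 8.0% of the 25 regions of Col26a1 and Col28a1. Regions kept in all 9 libraries ran from 33.3% for the multiplexins to 2.5% for the network-forming genes.

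The 82 infant-only regions were spread over 27 members, and 57 of them lay inside gene bodies (69.5%, against 50.5% of infant-only regions of all genes). This excess was not particular to infant-only regions. Of the collagen regions with a peak in all 9 libraries 75.4% lay inside bodies (61.6% over all genes). Of those in no class named above 73.1% did (55.3% over all genes). Within 1 kb of a gene end lay 5 infant-only regions (6.1%, against 7.15%). Their median length was 457 bp, against 439 bp for those of all genes. Col5a1 held 9 infant-only regions of 31, Col14a1 7 of 22, Col25a1 7 of 28, Col1a2 6 of 15, and Col1a1, Col6a3, Col18a1 and Col27a1 held 5 each. Regions kept in all 9 libraries were held by 25 members, 17 of which also held an infant-only region. Col15a1 held 9 kept regions and 1 infant-only region, and Col24a1 held 6 and 1.

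Col5a1 and Col1a2 differed in what happened at the start of the gene. At Col5a1 the region over the start (chr2:27885694-27887438) and another 10.9 kb upstream (chr2:27874798-27876149) had a peak in all 9 libraries, while 8 infant-only regions lay inside the body between 8.41 and 152 kb downstream of the start. At Col1a2 the region over the start (chr6:4505202-4506520) was infant-only, as were 4 regions between 15.5 and 21.3 kb upstream (the outermost at chr6:4483987-4484672). At Col1a1, by contrast, the region in the body 1.16 kb from a gene end (chr11:94936771-94937987) had a peak in all 9 libraries, and all 5 infant-only regions lay outside the body, between 7.22 and 39.3 kb from it. At Col6a1 the start region (chr10:76725670-76726343), a region 7.26 kb upstream (chr10:76732767-76733842) and another 8.58 kb past the far end of the gene (chr10:76699802-76700619) were infant-only. At Col6a3, 4 of the 5 infant-only regions lay outside the gene, between 22.6 and 75.7 kb from its nearest end, and the fifth lay 3.63 kb inside the body from the start (chr1:90840164-90840578).

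**Figure D5:**
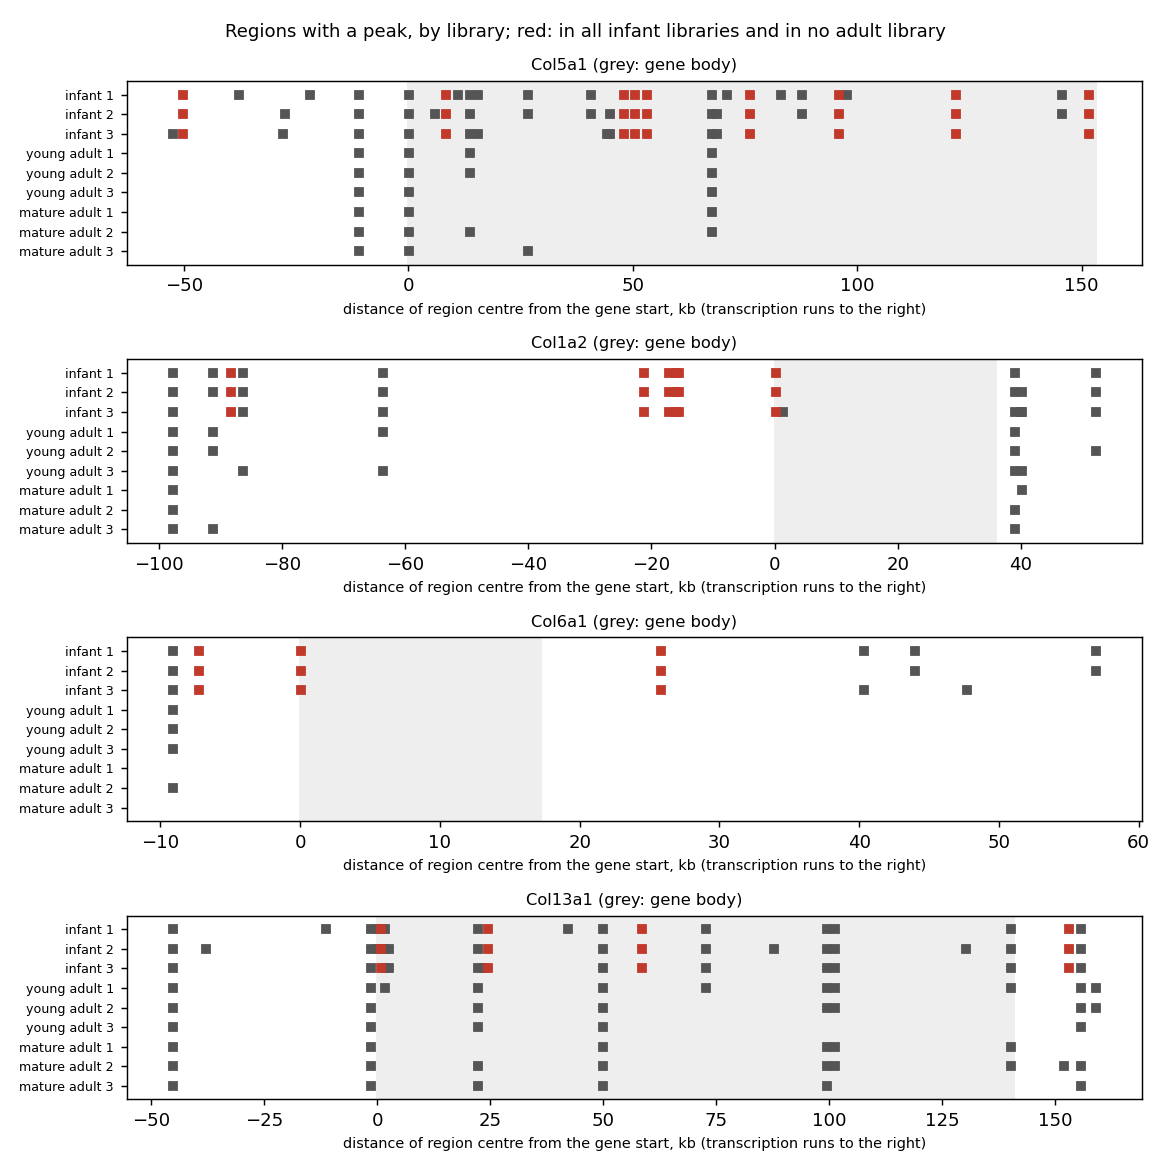
Regions with a peak in each library (rows) at Col5a1, Col1a2, Col6a1 and Col13a1, against the distance of the region's centre from the gene start in kb, with the gene body in grey and infant-only regions in red (marker width is not to scale). Col5a1 keeps a peak at the start in all 9 libraries, while the start regions of Col1a2 and Col6a1 are infant-only.

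Ranked by peak width within the library, the widest infant-only regions lay inside Col13a1 (chr10:61920004-61921404, 58.5 kb from the start), inside Col14a1 (chr15:55417284-55418734), upstream of Col6a1 (the region 7.26 kb away), and inside Col25a1 (chr3:130568462-130569873), Col27a1 (chr4:63226326-63227341, 12.8 kb from the start) and Col18a1 (chr10:77151455-77152693, 14.5 kb from the start). The regions kept by young adults and absent from mature adults included the shared start of Col4a3 and Col4a4 (chr1:82586579-82587463), which holds the Col4a4 window printed above, and a second region 3.28 kb inside Col4a3 (chr1:82590054-82590578). The others lay inside Col14a1 (chr15:55471101-55471790 and chr15:55473863-55474166), near the end of Col8a2 (chr4:126313166-126313584) and inside Col26a1 (chr5:136790705-136791331), and the seventh lay 99.2 kb outside Col8a1 (chr16:57853723-57854239). Both adult-only regions belonged to Col28a1: one lay 9.59 kb outside the gene (chr6:7987048-7987973) and the other inside the body (chr6:8086891-8087118). The gene table used here gives no exons or introns, so a region's place within a gene is not given further.

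Genes that modify, cut, cross-link or bind collagen were read from a list of 44, of which 38 were tested. Between infants and young adults 6 fell (P4ha3, Plod3, Adamts2, Loxl1, Ddr2 and Mrc2) and none rose, where 9.26% and 1.13% of all tested genes did. Between infants and mature adults 11 fell and none rose, where 13.8% and 1.44% did. On scaled numbers alone 9 and 11 were called higher, where 25.6% and 30.0% of all tested genes were. Between young and mature adults 1 fell, P4ha3, where 0.644% of all tested genes did. P4ha3, Ddr2 and Itga11 passed the filter of a mean of at least 1 peak only through their infant libraries.

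Prolyl 4-hydroxylation stabilises the triple helix. Of the 8 P4h and P3h genes in the list, P4ha2, P4ha3 and P3h2 fell in mature adults, while P4ha1, P4hb, P3h1, P3h3 and P3h4 did not. P4hb had 1 peak in every library, and P4ha1 had 10, 7 and 12, then 10, 7 and 7, then 6, 8 and 8. P4ha3 had 7 peaks in each infant library, 1 in each young adult library and none in mature adults (limma adjusted p = 2.08e-07 and 3.75e-09 against infants, 2.34e-06 between the adult ages). Its equal numbers within each age leave little spread, so the small p-values go with changes of 6 or 7 peaks against infants and of 1 peak between the adult ages. P4ha2 had 12, 10 and 14, then 7, 7 and 5, then 4, 6 and 4 and fell in mature adults (limma adjusted p = 0.016), a call lost without infant library 3 or mature adult library 1 or 3 (0.0515 to 0.052) or with peaks in the body alone (0.0987). P3h2 had 16, 12 and 19, then 7, 7 and 8, then 5, 2 and 3 and also fell in mature adults (limma adjusted p = 0.00426). Plod3, a lysyl hydroxylase, had 4, 3 and 3 peaks in infants and 1 in each adult library (limma adjusted p = 0.000135 in mature adults). The fall was absent with peaks in the body alone. There the scaled change was 0.36 on the log2 scale, the value of a gene with 1 peak in every library, such as P4hb.

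Among the propeptide proteases, Adamts2, which trims fibrillar procollagens, had 19, 18 and 11 peaks in infants, 2, 3 and 1 in young adults and 2, 1 and 1 in mature adults (limma adjusted p = 0.000773 in mature adults). Tll2, of the tolloid family, had 10, 10 and 8, then 2, 4 and 2, then 1, 0 and 1 (limma adjusted p = 0.00258). Loxl1, a cross-linking amine oxidase, had 8, 10 and 8 in infants and 2 in each adult library (limma adjusted p = 0.000135). Adult libraries lay below all infant libraries for each of these 3 (27.5% of all tested genes in young adults and 35.6% in mature adults). Lox itself had 2, 3 and 2 peaks in infants and none in adults and was below the filter. Bgn, a fibril-binding proteoglycan, had 5, 5 and 4, then 3, 2 and 3, then 2 in each mature adult library (limma adjusted p = 0.0174), a call lost without infant library 1 or 2 (0.0545 and 0.0585).

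Of the collagen receptors, Ddr2, a receptor tyrosine kinase for fibrillar collagens, had 7, 6 and 7 peaks in infants, 0, 2 and 0 in young adults and none in mature adults (limma adjusted p = 0.00216 in mature adults). Itga11, an integrin chain of fibroblasts, had 7, 6 and 4, then 1, 2 and 0, then 0, 0 and 1 (limma adjusted p = 0.0161), a call lost without infant library 1 or mature adult library 1 or 2 (0.053 to 0.0552). Mrc2, which takes up collagen, had 9, 8 and 7, then 4, 3 and 3, then 2, 2 and 3 (limma adjusted p = 0.00117). The 3 receptors were lower in every adult than in every infant library (27.5% of all tested genes in young adults and 35.6% in mature adults). So was Itgb1, with 10, 10 and 11, then 6, 6 and 7, then 6, 6 and 7 peaks, which passed on unscaled numbers only. Itga10, Ddr1 and Lair1 overlapped between infants and adults, and Gp6 had no peak. By contrast Itga1, an integrin chain for network collagens, had 36, 31 and 31 peaks in infants and 31, 34 and 31 in young adults, and Itga2 had 16, 17 and 18 against 17, 18 and 16. Both were called higher on scaled numbers and not on unscaled ones. The difference in change between these receptors was not tested.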

How the data were processed

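ATAC-seq libraries of sorted mouse lung endothelial cells, 3 per age, were analysed from 1 peak list each. The deposited lists hold positions only (chromosome, start, end), per the file headers, with no score or read number, so depth is unknown and no counting interval can be given. Per the submitters' processing notes, cutadapt, Bowtie2 and Picard were used with build mm10. The caller, its cut-off and any transposase shift are not stated in the sources used here, nor whether starts count from 0 or 1, so positions may be off by 1 bp. Between 31.5% and 39.5% of rows repeated an interval, and each interval was counted once. Genes and promoter sequences came from RefSeq tables of GRCm38.p6. Of each library's peaks 90.5% to 93.6% were assigned to a gene.

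Peaks per gene were tested as log2(number + 0.5) with limma 3.58.1 (R 4.3.3, mean-variance trend, 9 libraries in 1 fit), scaled to the library total and unscaled, with Benjamini-Hochberg adjustment over 14448 genes and a threshold of 0.05. Fitted changes of genes with few peaks understate the change, and at 0 in an age they reflect the added 0.5, so mostly peak numbers are given. Regions are peaks merged on an overlap of at least 1 bp, and a promoter has a peak on an overlap of 1 bp. Full values were given for members that passed on both scales, the 10 with most peaks and their partners in a collagen type. Regions named were the up to 6 widest per class, with at most 2 per gene, and those of the 5 genes discussed by position were chosen after their values were seen. The members and lists were chosen with earlier results of these data known, so counts and medians over members are descriptions. Python 3.11.15, pandas 2.3.3, numpy 2.4.6 and matplotlib 3.10.9 were used for the rest. Alternatives were unscaled numbers, the widest peaks, rows as deposited, a pseudocount of 1, no filter, other assignment rules, a fit of the ages compared, a replicate block and leaving out libraries.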

Additional observations from a re-analysis of the deposited data

How the results depend on the processing

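Counts here are collagen genes called on scaled numbers in either direction, with main values of 13 (young adult against infant), 20 (mature adult against infant) and 1 (mature against young adult). Leaving out single libraries gave 10 to 15, 15 to 23 and 1 to 3, the share ratio of infant to mature adult ran from 1.84 to 1.91 (main value 1.88), infant-only regions from 82 to 107, adult-only regions stayed at 2, and promoters with a peak in all infant and no mature adult library ran from 8 to 10. With an equal number of the widest peaks the values were 5 and 13 genes and a ratio of 1.67. Infant-only regions at collagen genes then numbered 34, where 5.00% of all regions were infant-only (9.70% in the main setting). Adult-only regions at collagen genes numbered 4, where 3.05% of all regions were adult-only (0.686% in the main setting). Collagen promoters numbered 5, where 2.73% of all windows had the same pattern (3.99% in the main setting). The total of collagen regions in this setting is not given, so their shares cannot be set beside these. Rows as deposited gave a ratio of 1.98. A fit of the 6 adult libraries called 0 genes between them (Col26a1 was below its filter), and leaving out young adult 3 and mature adult 1 called 2. Adult-only regions numbered 1 when 50% of the region had to be covered, and 1 inside gene bodies. Replicate numbers are shared between ages, but same-numbered libraries correlated at -0.167 to 0.166, with 1 of 9 pairs over 0.1. Only 3 libraries correlated best with their own number in both other ages, so the numbers were not taken as pairs. The highest correlation between ages, 0.285, was that of young adult 3 with mature adult 1, the libraries that stood apart. A replicate block called 12, 19 and 1 genes. Unscaled numbers turned the change of Itga1 to -0.027 (young adult) and -0.18 (mature adult against infant). They turned that of Tll1 to -0.0080 (log2 scale). Colgalt1 went to -0.58 with rows as deposited, and Lair1 to -0.16 with the widest peaks. The cause of these changes was not tested. Plod3 went to 0.28 and 0.36 both within 10 kb and in the body alone. These are the scaled values of a gene with 1 peak in every library, such as Col9a3. Unknown depth limits every statement about a missing peak.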
